A study of Mus musculus with 14 samples.

Results

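Gene expression was compared between 2 successive stages of murine erythroid progenitors, E2 and E1, after both had been stimulated with erythropoietin (EPO), the hormone that drives red cell formation. The comparison rested on 7 of the 14 arrays of the series, 3 of stage E2 plus EPO and 4 of stage E1 plus EPO, and was made for each of 45037 probe sets that are not array controls. All cells were expanded ex vivo from the bone marrow of female wild-type C57Bl/6 mice of 8 to 12 weeks. Lineage-marker-positive cells had been removed from both stages. E1 cells, described by the submitters as CFUe-like (a colony-forming progenitor), were taken at day 3 of culture as Kit+ CD71+ cells, and E2 cells, described as proerythroblasts, at day 3.5 from parallel cultures as CD71+ cells left after Kit+ cells were removed. These days are those of the labels. The study's methods give E1 cells the same culture day as E2 cells, so whether the stages also differed in culture time is not settled. Every sample was then held for 5.5 hours without hematopoietic cytokines before the challenge with EPO at 4 U/mL for 90 minutes. The other 7 arrays (4 of E1, 3 of E2) were from the same stages without EPO, and served here to set each stage difference under EPO beside the one without it. The replicates are called biological in the labels, which do not say how many mice or cultures each came from, so p-values measure the spread between these samples.

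EPO acts through its receptor and the kinase JAK2, and the transcription factor STAT5 is its best known nuclear effector. As a CFUe becomes a proerythroblast it loses the stem cell factor receptor Kit and the early factors Gata2 and Myb, while Gata1 and its partners switch on genes for haem, globin and the red cell membrane. Later the cell shrinks, clears its organelles, condenses its chromatin and expels its nucleus.

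Values are the deposited log2 signals of each probe set minus a constant for that probe set. A value near 0 therefore says nothing about how strongly a gene was expressed, and only differences between arrays can be read. A gene was represented by 1 probe set, the one that varied most over the 7 arrays without EPO, and a gene was called higher or lower in E2 when the limma test of the 3 E2 against the 4 E1 arrays gave an adjusted p under 0.05, with adjustment over all 45037 probe sets. An exact permutation test of 4 against 3 arrays cannot give a two-sided p below 0.0571, so single genes were tested only in this fit. Array-to-array correlations over probe sets were 0.792 to 0.912 among the E1 arrays, 0.753 to 0.823 among the E2 arrays and -0.118 to -0.019 between the stages. The control probe sets also separated the stages. The mean of 24 probe sets for the poly-A spike-in controls, RNAs added before labelling, lay at 2.91 to 3.21 in E1 and at -0.62 to -0.44 in E2. The mean of the 3 probe sets for 18S ribosomal RNA lay at 0.25 to 3.16 in E1 and at -1.17 to -0.84 in E2. That of 3 control probe sets for a transcript absent from the sample lay at -0.01 to 0.05 in E1 and -0.05 to -0.03 in E2. This offset of -0.05 is as large as some of the called differences below. The 3′ minus 5′ difference of the transferrin receptor controls, a measure of transcript completeness, was 0.62 to 1.01 in E1 and -0.44 to 0.06 in E2, whereas those of actin (-0.23 to 0.23 in E1, -0.13 to 0.2 in E2) and Gapdh (-0.17 to 0.14 and -0.07 to 0.35) overlapped. Stage and any difference in how the arrays were prepared cannot be told apart, and their part in the results was not tested. E1 replicate 1 stood apart from the other E1 arrays in the hybridization and 18S controls, so the list counts below were repeated without it.

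Stage E2 differed from stage E1 under EPO in a large share of the genes measured. Of 18193 genes, 2117 were higher in E2 (11.6%) and 2874 were lower (15.8%). With a fold of at least 2 the counts were 1317 (7.24%) and 1342 (7.38%), and the median difference over all genes was -0.028 log2 units. By probe set 4081 were higher (9.06%) and 5721 lower (12.7%), and 2286 and 2287 (5.08% each) with a fold of at least 2. Values of all 3 E2 arrays lay above all 4 E1 arrays in 15.6% of genes and below them in 46.7%, and these are the shares against which groups that do not overlap should be read. The median fold was 2.13 among called probe sets that were higher and 1.76 among those that were lower. Calls include very small differences, and the counts with a fold of at least 2 were nearly equal, so these medians do not rank rises above falls. A gene list is described below by how many of its measured members were called in each direction, beside the 11.6% and 15.8% of all genes, and by its median difference. The lists are short and were put together with earlier results from these arrays known, so no list was tested. Without E1 replicate 1 no count of the 36 lists moved by more than 3 genes.

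Promoter sequences were examined because several of the gene groups below moved together. RefSeq promoters (GRCm38.p6, 250 bases before to 30 after the furthest upstream start) were matched by symbol for 14452 of the 18193 genes measured. AGATAA, the core bound by GATA factors, was sought on both strands and was found in 7.85% of all these promoters, in 7 of 23 promoters of red cell membrane genes (30.4%) and in 3 of 15 of haem genes (20%). It was no more frequent among all genes at least 2-fold higher in E2 (6.79%) than among those at least 2-fold lower (6.91%). CACGTG, the E box bound by Myc and Max, was found in 8.7% of all promoters and in 8 of 47 of ribosome biogenesis factors (17.0%). The same element was found in 3 of 15 of haem genes (20%) and in 5 of 26 of autophagy and mitophagy genes (19.2%). Both of these lists held more genes higher than lower in E2, as did the red cell membrane genes, where 1 of 23 matched (4.35%). CACGTG was found in 13.0% of genes at least 2-fold lower in E2, against 9.86% of those at least 2-fold higher. TTCNNNGAA, the STAT element, was present in 6.9% of all promoters, in 3 of 14 of STAT5 target genes (21.4%) and also in 8 of 47 of ribosome biogenesis factors (17.0%). It was present in 5.61% of genes at least 2-fold higher in E2 and in 6.55% of those at least 2-fold lower. TTTCGCGC, an E2F element, was present in 0.477% of all promoters and in 5 of 37 of DNA replication genes (13.5%). CCNCNCCC, a CACCC box of the kind bound by Klf1, was present in 62.0% of all promoters, in 12 of 15 of haem genes (80.0%) and in 73.8% of genes at least 2-fold higher in E2, against 66.5% of those at least 2-fold lower. TGACTCA, an AP-1 element and the core of the NF-E2 element, was present in 4.14% of all promoters, in 3.71% of genes at least 2-fold higher and in 2.27% of those at least 2-fold lower. Matches of different elements may overlap, and a match describes letters in the window, not a bound site. The promoters below belong to genes called in the groups described next and hold a match, in capitals. All of them were chosen for display after their values were seen. Each is given 5′ to 3′ on the strand of its gene.
Epb42 (GATA; chr2:121036848-121037127, minus strand): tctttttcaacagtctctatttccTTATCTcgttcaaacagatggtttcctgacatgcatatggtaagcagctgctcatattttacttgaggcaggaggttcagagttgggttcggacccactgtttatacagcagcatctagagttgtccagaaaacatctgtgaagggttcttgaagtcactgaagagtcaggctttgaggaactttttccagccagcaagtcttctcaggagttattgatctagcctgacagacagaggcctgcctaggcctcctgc
Alas2 (GATA; chrX:150547167-150547446, plus strand): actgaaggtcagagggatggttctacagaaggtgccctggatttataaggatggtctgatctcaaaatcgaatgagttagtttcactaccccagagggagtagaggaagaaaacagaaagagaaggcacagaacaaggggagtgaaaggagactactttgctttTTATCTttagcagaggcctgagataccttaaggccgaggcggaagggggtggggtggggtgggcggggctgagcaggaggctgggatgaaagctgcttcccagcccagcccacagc
Nop2 (E box; chr6:125131633-125131912, plus strand): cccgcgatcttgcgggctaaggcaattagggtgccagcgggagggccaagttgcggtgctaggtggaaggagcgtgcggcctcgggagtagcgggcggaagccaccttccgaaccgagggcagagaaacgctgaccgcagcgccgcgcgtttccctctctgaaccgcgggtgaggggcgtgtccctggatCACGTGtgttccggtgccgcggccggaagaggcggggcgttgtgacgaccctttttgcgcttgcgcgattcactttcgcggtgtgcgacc
Mcm6 (E2F; chr1:128359676-128359955, minus strand): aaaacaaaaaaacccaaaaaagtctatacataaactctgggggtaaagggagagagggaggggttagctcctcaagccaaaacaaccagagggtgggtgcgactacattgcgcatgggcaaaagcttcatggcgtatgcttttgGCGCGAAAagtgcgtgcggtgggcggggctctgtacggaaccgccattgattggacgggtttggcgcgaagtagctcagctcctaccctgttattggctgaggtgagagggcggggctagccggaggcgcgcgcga
Socs3 (STAT; chr11:117969337-117969616, minus strand): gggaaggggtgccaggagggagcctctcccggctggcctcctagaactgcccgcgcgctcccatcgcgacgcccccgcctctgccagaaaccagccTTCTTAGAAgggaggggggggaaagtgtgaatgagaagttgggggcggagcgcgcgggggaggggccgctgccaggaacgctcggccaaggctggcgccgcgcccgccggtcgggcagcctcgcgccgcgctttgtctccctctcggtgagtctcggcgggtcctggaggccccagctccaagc
Cish (STAT; chr9:107296409-107296688, plus strand): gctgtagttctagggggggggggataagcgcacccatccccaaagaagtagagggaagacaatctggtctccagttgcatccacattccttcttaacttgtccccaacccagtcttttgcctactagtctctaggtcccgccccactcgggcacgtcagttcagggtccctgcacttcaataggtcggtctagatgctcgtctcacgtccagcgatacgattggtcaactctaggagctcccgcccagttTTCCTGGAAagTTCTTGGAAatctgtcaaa
In Epb42, Alas2 and Mcm6 the match reads on the opposite strand. The match began 226 bases before the start in Epb42, 86 before it in Alas2, 60 before it in Nop2, 106 before it in Mcm6 and 154 before it in Socs3, and Cish held 2 matches, at the start and 11 bases after it.

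The markers used to isolate the cells followed the sort, which is a check of the labels and not a result. Kit, the stem cell factor receptor, read 3.13, 3.48, 3.86 and 3.79 in the E1 arrays and -0.42, -0.06 and 0.08 in the E2 arrays, a difference of -3.70 ± 0.22 (SE; 13.0-fold lower). Tfrc (CD71), on which both stages were selected, read -2.38, -1.91, -1.08 and -0.49 in E1 and 0.32, 0.7 and -0.29 in E2, and its difference of 1.71 ± 0.52 did not pass the test (adjusted p = 0.0682). Another Tfrc probe set was called higher at a smaller difference (0.47 ± 0.05, adjusted p = 0.00251), and a further one (1.16) was not called.

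Genes of haem synthesis were higher in E2, 12 of 17 measured (70.6%), with none lower, and a median difference of 1.35. At an unadjusted p under 0.05, limma placed 14 higher and 2 lower, and the t-test after Benjamini-Hochberg adjustment 14 and 1. The count of 0 lower became 1 without E1 replicate 2 or 4. Alas2, the rate-limiting erythroid enzyme of the pathway, read -3.67, -4.47, -4.11 and -4.25 in E1 and 0.06, -0.02 and 0.01 in E2, so that the stages lay far apart beside their spread (difference 4.14 ± 0.19, 17.7-fold, adjusted p = 0.000122). Enzymes further along were also higher, namely Uros (8.58-fold), Ppox (4.00-fold) and Fech (4.85-fold), which inserts the iron. Abcb10, a mitochondrial transporter of developing red cells, was 12.7-fold higher, with E2 values that ranged from -0.71 to 0.63. Alas1, the housekeeping counterpart of Alas2, differed by -0.41 and was not called. In the iron list, 5 of 18 genes were higher and 1 lower (27.8% and 5.56%). Slc25a37 (mitoferrin), which carries iron into mitochondria, read between -2.52 and -2.4 in the 4 E1 arrays and between -0.02 and 0.18 in the 3 E2 arrays (difference 2.54 ± 0.05, 5.80-fold, adjusted p = 1.36e-05). Ncoa4, the receptor that delivers ferritin for degradation, was 4.02-fold higher, and Tfr2, the second transferrin receptor, was 1.97-fold lower.

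Red cell membrane and skeleton genes were higher in 20 of 33 cases (60.6%) and lower in 2, with a median difference of 1.21. Slc4a1 (band 3, the anion exchanger) read -5.45, -6.75, -5.49 and -6.05 in E1 and -0.27, 0.27 and -0.75 in E2, and its difference of 5.69 ± 0.41 was the third largest rise of all genes called and not overlapping (51.4-fold, adjusted p = 0.000521). Epb42, a skeleton protein that binds band 3, read -4.08, -4.48, -3.86 and -4.58 against 0.14, 0.25 and 0.1 (4.42 ± 0.19, 21.3-fold). In both genes every E2 array lay far above every E1 array. Dmtn (dematin) was 8.13-fold higher, Gypc (glycophorin C) 3.65-fold, Add2 (beta adducin) 3.81-fold and the glucose transporter Slc2a1 4.40-fold. The 2 that were lower were Add3 (gamma adducin, 3.41-fold) and Car1 (carbonic anhydrase 1), which read 2.84, 2.64, 2.31 and 2.46 in E1 and -0.05, -0.1 and -0.16 in E2 (6.36-fold, adjusted p = 0.000154). Ank1 (difference 1.68, adjusted p = 0.0729) and Bsg (1.37) did not pass. Only 6 globin genes had a probe set naming them alone, and of these Hbb-y, an embryonic beta-like globin, was called, with -2.4, -2.45, -2.45 and -2.45 in E1 and 0.78, 0.87 and 1.14 in E2 (3.37 ± 0.09, 10.3-fold). The adult genes Hba-a1 (-0.01), Hba-a2 (-0.8) and Hbb-b2 (-0.2) were not called. Globin genes are near-identical copies, so their probe sets may share signal, and a bright probe set can saturate, which centred values do not show.

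**Figure D1:**
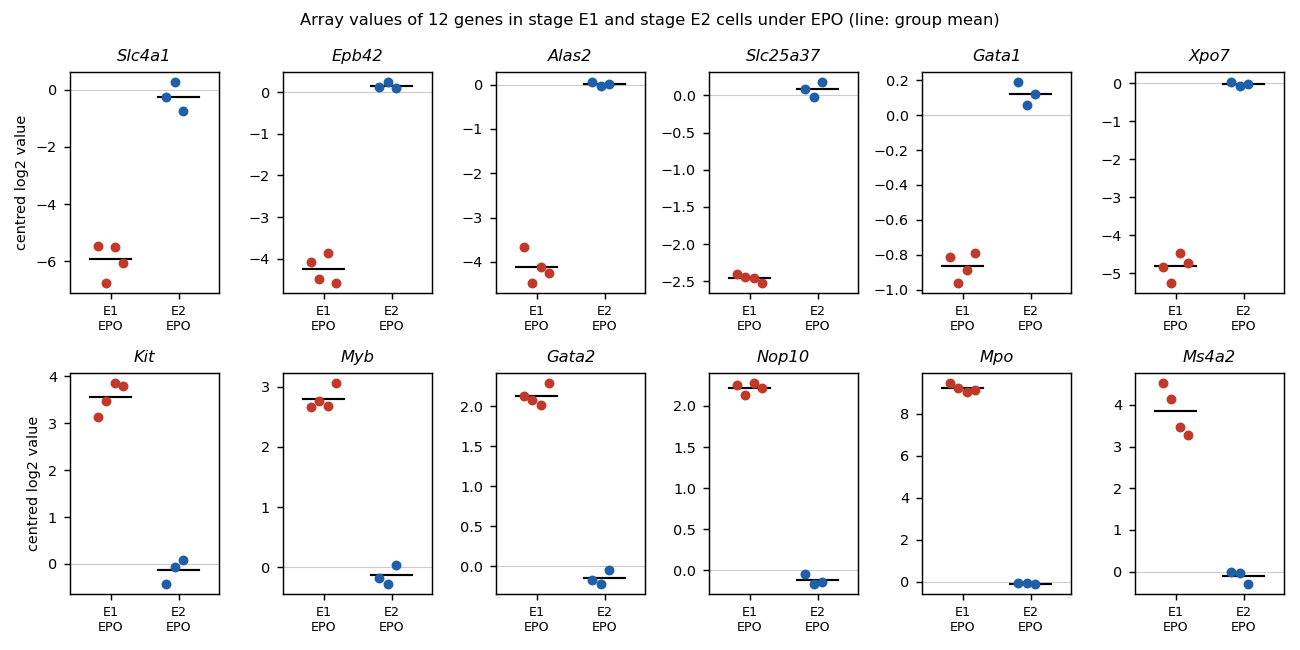
Centred log2 values (vertical axis, log2 units) of 12 genes in each E1 (4) and E2 (3) array under EPO, where points are arrays and lines are group means. Slc4a1, Epb42, Alas2, Slc25a37, Gata1 and Xpo7 lie higher in E2, and Kit (a sort marker), Myb, Gata2, Nop10, Mpo and Ms4a2 lie lower, with no overlap between the stages in any of the 12.

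Among 30 erythroid transcription factors and cofactors, 13 were higher and 5 lower (43.3% and 16.7%, median difference 0.72). The count of 5 lower became 3 when any of the E2 arrays was left out. Gata1, the master regulator of the lineage, read -0.81, -0.96, -0.89 and -0.79 in E1 and 0.19, 0.06 and 0.12 in E2, a small difference that was well outside the spread (0.99 ± 0.05, 1.98-fold, adjusted p = 0.000186). Its partners Tal1 (0.99) and Zfpm1 (1.02) moved by the same amount. Rises were larger for Klf3 (8.12-fold), a repressor that Klf1 activates, for Sox6 (7.82-fold), which takes part in globin switching, for E2f2 (7.73-fold), needed for cell cycle exit, and for Nfe2 (4.17-fold), the p45 subunit of NF-E2. Klf1 itself differed by 0.24 and was not called (adjusted p = 0.139). The lower members were Bcl11a (3.65-fold), a repressor of embryonic globin genes, Stat5a (3.30-fold), the lymphoid factor Ikzf1 (1.65-fold) and, with calls lost when 1 array was left out, the cofactors Ldb1 and Rcor1. Stat5a read 1.63, 1.35, 1.75 and 1.57 in E1 and -0.05, -0.29 and -0.09 in E2, while Stat5b differed by 0.48 and was not called (adjusted p = 0.49).

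Of 29 transcription factors of early progenitors, 9 were lower and 5 higher, and 15 did not pass (31.0% and 17.2%, median -0.22). Gata2, which Gata1 displaces, read 2.13, 2.08, 2.02 and 2.29 in E1 and -0.18, -0.22 and -0.05 in E2 (4.86-fold lower, adjusted p = 5.64e-05). Myb, which keeps progenitors dividing, read 2.66, 2.76, 2.67 and 3.06 against -0.17, -0.27 and 0.04 (7.55-fold lower, adjusted p = 0.000109). In both genes the 3 E2 arrays lay below every E1 array by more than 2 log2 units. Nfia (7.45-fold), Tcf4 (6.00-fold) and Etv6 (3.25-fold) were also lower. Egr1, an early gene of growth factor signalling, was 22.2-fold higher in E2 under EPO, from -0.65 to -0.29 in E1 to 3.93 to 4.06 in E2, and Cebpb was 9.02-fold higher. Runx1 was 4.08-fold higher, a call lost without E2 replicate 1, and without that array 3 members were higher. Myc read 2.6, 1.97, 2.8 and 3.27 in E1 and 2.61, 2.49 and 2.38 in E2, a difference of -0.17 that was within the spread (adjusted p = 0.658). Of 22 surface and signalling genes of progenitors, Kit included, 8 were lower and 3 higher, and 4 or 5 were lower when any of the E2 arrays was left out. Ptprc (CD45, 9.86-fold) and Cd48 (5.77-fold) were lower. The shared beta chains of the IL-3 receptor family, Csf2rb (7.31-fold) and Csf2rb2 (11.3-fold), were higher, and they are near copies whose probe sets may share signal.

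Markers of other myeloid cells were lower in E2. In these bulk samples fewer cells of a type and less RNA per cell cannot be told apart. Neutrophil and granulocyte markers were lower in 9 of 18 cases with none higher (none also at an unadjusted p under 0.05, and by the t-test), and their mean over the list was 3.34 to 3.49 in the E1 arrays and -0.05 to -0.04 in the E2 arrays. Mpo, the myeloperoxidase of primary granules, read 9.47, 9.23, 9.06 and 9.11 in E1 and -0.07, -0.07 and -0.08 in E2, which was the largest fall of all genes called and not overlapping (628-fold, adjusted p = 3.04e-06). S100a8 (573-fold), S100a9 (374-fold), Chil3 (214-fold), Ctsg (177-fold), Prtn3 (149-fold) and Elane (109-fold), products of granulocyte precursors and granulocytes, followed it closely. Genes of later neutrophil stages differed among themselves. Ngp, a secondary granule protein, read 3.7, 3.54, 4.29 and 4.01 in E1 and -0.05, -0.04 and -0.05 in E2 (15.3-fold lower), Lcn2 (-1.05) and Camp (-0.55) did not pass, and Cxcr2 was called at a difference of -0.04. Ltf, Mmp8, Mmp9, Cd177, Csf3r and Itgam lay within 0.07 of 0 on all 7 arrays and were not called. In monocyte markers 5 of 18 were lower with none higher, at a list mean of 0.63 to 0.97 in E1 and -0.11 to -0.09 in E2, and the largest differences were Lyz1 (42.2-fold) and Lyz2 (15.5-fold), which neutrophils also express. The count was 3 without E1 replicate 3 or without E2 replicate 1. Csf1r was lower by the probe set used (-2.97, adjusted p = 0.0231), while its other probe sets differed by -0.06 and 0.04 and were not called. The call of Csf1r was lost without E1 replicate 1 or 3 or any 1 of the E2 arrays. C1qb (-0.47, adjusted p = 0.00213) was also lower, and Ccr2 differed by -2.11 without passing (adjusted p = 0.104), while C1qa, C1qc, Cd14 and Marco lay within 0.04 of 0 on all 7 arrays. Mast cell, basophil and eosinophil markers were lower in 5 of 17 cases with none higher (0.84 to 1.07 against -0.13 to -0.05), led by the histidine decarboxylase Hdc (31.3-fold), the Fc receptor chain Ms4a2 (15.6-fold) and the protease Cpa3 (12.1-fold), and this count was 3 without any 1 of the E2 arrays. Ms4a2 read 4.53, 4.15, 3.46 and 3.28 in E1 and 0, -0.03 and -0.29 in E2, whereas the mature mast cell proteases Mcpt4, Tpsab1 and Mcpt1 read within 0.11 of 0 on all 7 arrays. The part of these cell types in the other stage differences was not tested.

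Megakaryocyte markers moved in the opposite direction. Of 17 genes 10 were higher in E2 (58.8%), none was lower (1 at an unadjusted p under 0.05, and 1 by the t-test), and the list mean was -0.49 to -0.32 in E1 and 0.85 to 0.97 in E2. Without E1 replicate 1 the split was 9 and 1. Ppbp, a platelet chemokine, read -1.16, 0.15, -0.55 and 0.27 in E1 and 4.24, 4.24 and 4.12 in E2 (23.0-fold, adjusted p = 0.00078). Pf4, another platelet chemokine, read 0.17, -0.32, -0.29 and -0.45 against 1.76, 1.65 and 1.8 (3.89-fold). Gp9 (8.00-fold) and Gp1bb (4.95-fold), subunits of the platelet von Willebrand factor receptor, and Clec1b (4.86-fold) were also higher. Selp, Treml1 and Gp6, further platelet genes, lay within 0.15 of 0 on all 7 arrays. Among other members that did not pass, Thbs1 (-0.9, adjusted p = 0.116) and Tubb1 (-0.33) lay lower in E2 and Gp5 (0.98) higher. Thbs1 was the 1 called lower without E1 replicate 1. Some genes of this list, among them Itga2b (2.32-fold higher), are also expressed by early erythroid progenitors. The lymphoid and stromal lists held few calls and small differences. Their list means were -0.01 to 0.05 in E1 and -0.04 to 0.01 in E2 for B cells, -0.01 to 0.12 and -0.03 to -0.01 for T and NK cells, and 0 to 0.24 and -0.05 to -0.02 for stroma, where the stages did not overlap. E2 lay below every E1 array in 8 of 15, 12 of 17 and 10 of 16 members, beside 46.7% of all genes. The stromal gene Col1a2 read 2.96, 2.25, 0.76 and 0.19 in E1 and -0.1, 0.01 and -0.11 in E2 and did not pass (adjusted p = 0.157). None of 15 B cell markers was called (2 lower at an unadjusted p under 0.05, and 2 lower by the t-test), although 1 was lower without E1 replicate 1 or E2 replicate 2. Gzma and Cd2, the 2 of 17 T and NK cell markers that were lower, differed by -0.04 each, and Col3a1, the 1 of 16 stromal markers, by -0.06. The control probe sets for an absent transcript differed by -0.05, so calls of this size cannot be told apart from that offset. The calls of Gzma and Cd2 were lost without any 1 of the arrays other than E1 replicate 1, and that of Col3a1 without any 1 of the arrays other than E1 replicate 1 and E2 replicate 1, the list counting 2 without E1 replicate 1.

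**Figure D2:**
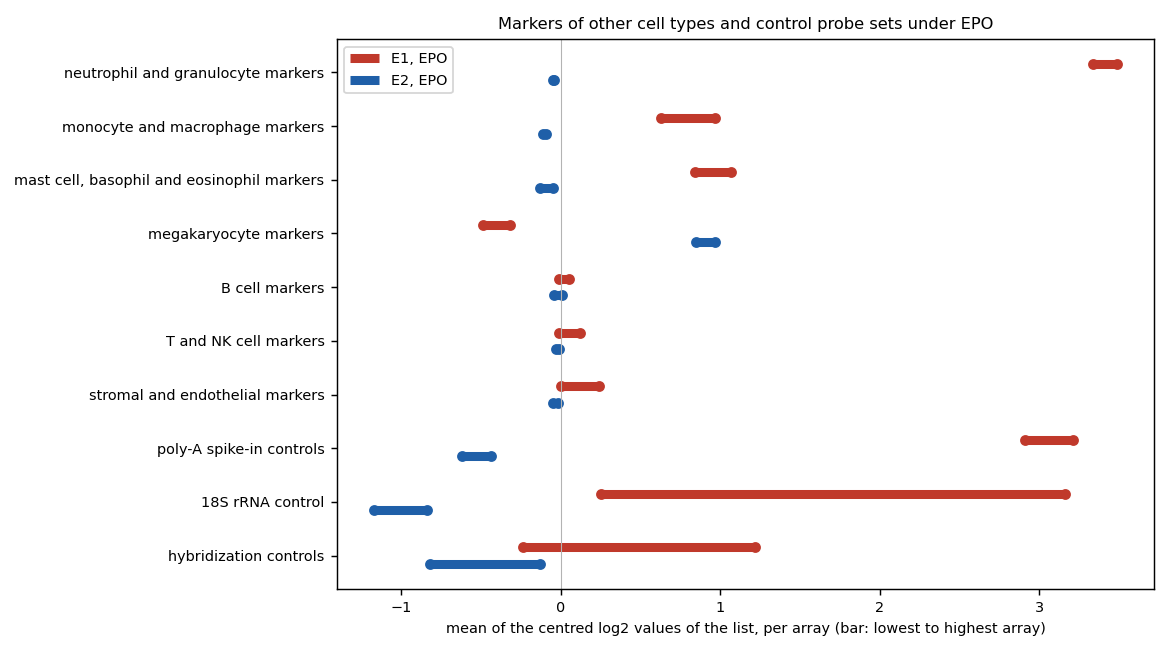
Range over arrays of the mean centred log2 value (horizontal axis, log2 units) of 7 cell type marker lists and 3 sets of array controls in the E1 (4) and E2 (3) arrays under EPO. The neutrophil list spans 3.34 to 3.49 in E1 and -0.05 to -0.04 in E2, the megakaryocyte list is higher in E2, and the poly-A controls span 2.91 to 3.21 in E1 and -0.62 to -0.44 in E2.

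Most cell cycle regulators were higher in E2. Of 32 cyclins, cyclin-dependent kinases and their inhibitors, 21 were higher and 5 lower (65.6% and 15.6%, median 1.18). The inhibitors Cdkn2d (p19, 9.18-fold), Cdkn1b (p27, 4.28-fold) and Cdkn3 (5.01-fold) were higher, and so were drivers of the cycle, among them the mitotic phosphatase Cdc25b (16.4-fold), Cdk2 (2.99-fold) and the cyclins E, Ccne1 (2.24-fold) and Ccne2 (2.45-fold). Cdk6, which drives progenitors through G1, read 3.34, 3.4, 2.85 and 2.96 in E1 and 0.09, 0.03 and -0.03 in E2 (8.62-fold lower, adjusted p = 0.00016). Its partner cyclin D2 (Ccnd2) was 4.21-fold lower, Cdk4 1.81-fold lower and the inhibitor Cdkn1c (p57) 3.55-fold lower, whereas Ccnd3 was 3.11-fold higher by the probe set used. Another Ccnd3 probe set was also called higher (difference 2.03), and a further one was called lower at a difference of -0.06. Inhibitors and drivers were thus found in both directions. DNA replication genes were higher in 24 of 44 cases and lower in 4 (54.5% and 9.09%, median 0.65), and 14 were higher without E2 replicate 2 and 14 without E2 replicate 3. Rrm1, the large subunit of ribonucleotide reductase, read -0.24, -0.23, -0.06 and -0.15 in E1 and 0.97, 1.08 and 1.04 in E2 (2.30-fold, adjusted p = 0.000122). Its other probe sets differed less, by 0.52 (adjusted p = 0.0162) and by 0.32, which was not called. Tk1 (2.14-fold), Cdc45 (1.85-fold), Lig1 (1.64-fold) and Mcm6, a subunit of the replicative helicase (difference 1.25, adjusted p = 0.0087), were higher, while the polymerase subunits Pola1 (1.58-fold) and Pole (1.37-fold) were lower. In mitosis and cytokinesis 22 of 46 were higher and 4 lower (47.8% and 8.7%, median 0.66), with Racgap1 (2.76-fold), Prc1 (2.65-fold) and Melk (2.57-fold) among the higher and Cenpe (2.40-fold) and Kif20b (2.10-fold) among the lower.

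Ribosome biogenesis factors had the largest share called in 1 direction of the 36 lists, with 46 of 56 measured lower in E2 (82.1%, against 15.8% of all genes), 43 of them at least 2-fold, and a median difference of -1.60. None was higher, at an unadjusted p under 0.05 or by the t-test either. Between 41 and 47 were lower when 1 array at a time was left out. The mean over the list was 1.59 to 1.83 in the E1 arrays and 0.13 to 0.2 in the E2 arrays. Nop10, a core protein of the H/ACA particles that convert uridine to pseudouridine in ribosomal RNA, read 2.26, 2.13, 2.28 and 2.22 in E1 and -0.04, -0.16 and -0.14 in E2 (5.05-fold, adjusted p = 1.01e-05). Its partners in that particle, Gar1 (3.57-fold) and Dkc1 (3.38-fold), were lower with it. Utp20, which acts on the small subunit precursor, was 5.79-fold lower, and Mak16, needed for the large subunit, 3.00-fold lower. Differences of genes chosen after their values were seen were -3.53 for Nop58 and -1.51 for Fbl, which form the box C/D particles, -2.04 for Polr1a, the largest subunit of RNA polymerase I, -2.14 for Ncl and -1.19 for Npm1, both abundant nucleolar proteins, and -1.87 for Nop2, a ribosomal RNA methyltransferase. The protein components of the ribosome itself were called near the background share. Of 35 cytosolic ribosomal proteins 5 were higher (14.3%) and 6 lower (17.1%), with a median of -0.14. Among those called, differences ran from -1.19 (Rpl37) to 0.94 (Rps24), and both of these calls were lost without any 1 of the E2 arrays. That of Rps24 was also lost without E1 replicate 4, and its other probe sets were not called. The highest of all, Rps9 at 1.96, did not pass (adjusted p = 0.185).

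Other genes of growth and mitochondria were lower as well. Nucleotide and polyamine synthesis had 15 of 22 lower and 4 higher (median -1.16), with Mthfd1 of the folate cycle (7.16-fold), Srm, which makes spermidine (4.24-fold), Dhodh (3.75-fold) and Atic (3.37-fold) lower. The 4 higher, which included Odc1 (3.21-fold), the first enzyme of polyamine synthesis, became 2 without E1 replicate 4 or E2 replicate 1, and 1 without E2 replicate 2. Mitochondrial import and chaperone genes were lower in 12 of 23 cases with none higher at any threshold used or by the t-test (median -0.82), Hspd1 reading 1.35, 1.49, 1.48 and 1.62 in E1 and 0.05, -0.09 and 0.01 in E2 (2.82-fold lower). Its co-chaperonin Hspe1 was 2.18-fold lower and the intermembrane space receptor Chchd4 3.66-fold lower. In oxidative phosphorylation 18 of 38 were lower and 3 higher (median -0.29), a count that was 11 lower without E2 replicate 1 or 2. Examples are Ndufb5 (2.34-fold lower) and Ndufs1 (1.94-fold lower). The 3 higher became 1 without E1 replicate 2 or 3 or any 1 of the E2 arrays. Glycolysis and hypoxia genes were lower in 12 of 29 cases and higher in 3. Pkm, the pyruvate kinase of dividing cells, read 3.45, 3.25, 3.94 and 4.03 in E1 and 0.09, -0.27 and -0.05 in E2 (13.4-fold lower, adjusted p = 0.000282), and Hk2 was 20.3-fold lower. Egln3, a hypoxia-inducible prolyl hydroxylase, split the E1 arrays into 1.96 and 2.31 for replicates 1 and 2 and -0.79 and -0.54 for replicates 3 and 4, below 4.02 to 4.19 in E2, and its call was lost without E1 replicate 3 or 4 or any 1 of the E2 arrays. Cholesterol synthesis genes were higher in 10 of 21 cases (47.6%) with none lower (1 at an unadjusted p under 0.05, and 1 by the t-test), among them Cyp51 (3.36-fold) and Sc5d (2.58-fold), and 1 was lower without E1 replicate 2 or 3. The cytosolic chaperones split, the chaperonin subunits Cct3 (3.55-fold), Cct6a and Cct2 being lower and the inducible Hspa1b (8.64-fold) and Hspa1a (3.43-fold), near-identical copies, being higher (12 of 22 lower, 3 higher).

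Many genes tied to the late events of maturation were higher in E2. In the list for chromatin condensation and enucleation 16 of 30 were higher and 3 lower (53.3% and 10%, median 0.66). Xpo7, a nuclear export receptor of maturing erythroblasts, read -4.83, -5.25, -4.47 and -4.74 in E1 and 0.03, -0.07 and -0.03 in E2 (27.8-fold, adjusted p = 7.55e-05), and Trim10 was 9.06-fold higher. The ubiquitin-conjugating enzymes Ube2l6 (18.1-fold) and Ube2h (8.88-fold) were higher. The lower members were Vim, the intermediate filament vimentin that red cells lose (28.8-fold), Diaph2 and the acetyltransferase Kat2a. Autophagy and mitophagy genes were higher in 17 of 31 cases and lower in 2 (54.8% and 6.45%, median 1.03), with Calcoco1 (6.18-fold), Atg9a (4.65-fold), Atg4a (4.38-fold) and Becn1 (3.34-fold) higher. The 2 lower became 4 without E1 replicate 2, and 1 without E1 replicate 3 or E2 replicate 2 or 3. Bnip3, a mitophagy receptor, was 1.89-fold lower. Of 26 genes of antioxidant defence and red cell metabolism 12 were higher and 4 lower. Bpgm, which makes the oxygen-affinity regulator 2,3-bisphosphoglycerate, was 21.9-fold higher and Nqo1 12.4-fold, whereas the red cell pyruvate kinase gene Pklr was 2.02-fold lower. In the Bcl2 family 6 of 18 were higher and 2 lower. Bcl2l1 (Bcl-x), which protects maturing erythroblasts, read -4.35, -4.39, -4.35 and -3.05 in E1 and 0, 0.05 and -0.17 in E2 (15.9-fold, adjusted p = 0.00116). The death-promoting members Bbc3 (Puma, 5.86-fold), Pmaip1 (Noxa, 3.41-fold) and Bak1 (2.07-fold) were higher too, and Bcl2l11 (Bim) was 4.54-fold lower. Members that protect from cell death and members that promote it were thus both among the 6 that were higher. Of 31 FOXO factors and targets, 14 were higher and 5 lower, with Klf6 (16-fold), Gadd45a (9.79-fold), Klf3 (8.12-fold) and Sesn2 (5.90-fold) among the higher.

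**Figure D3:**
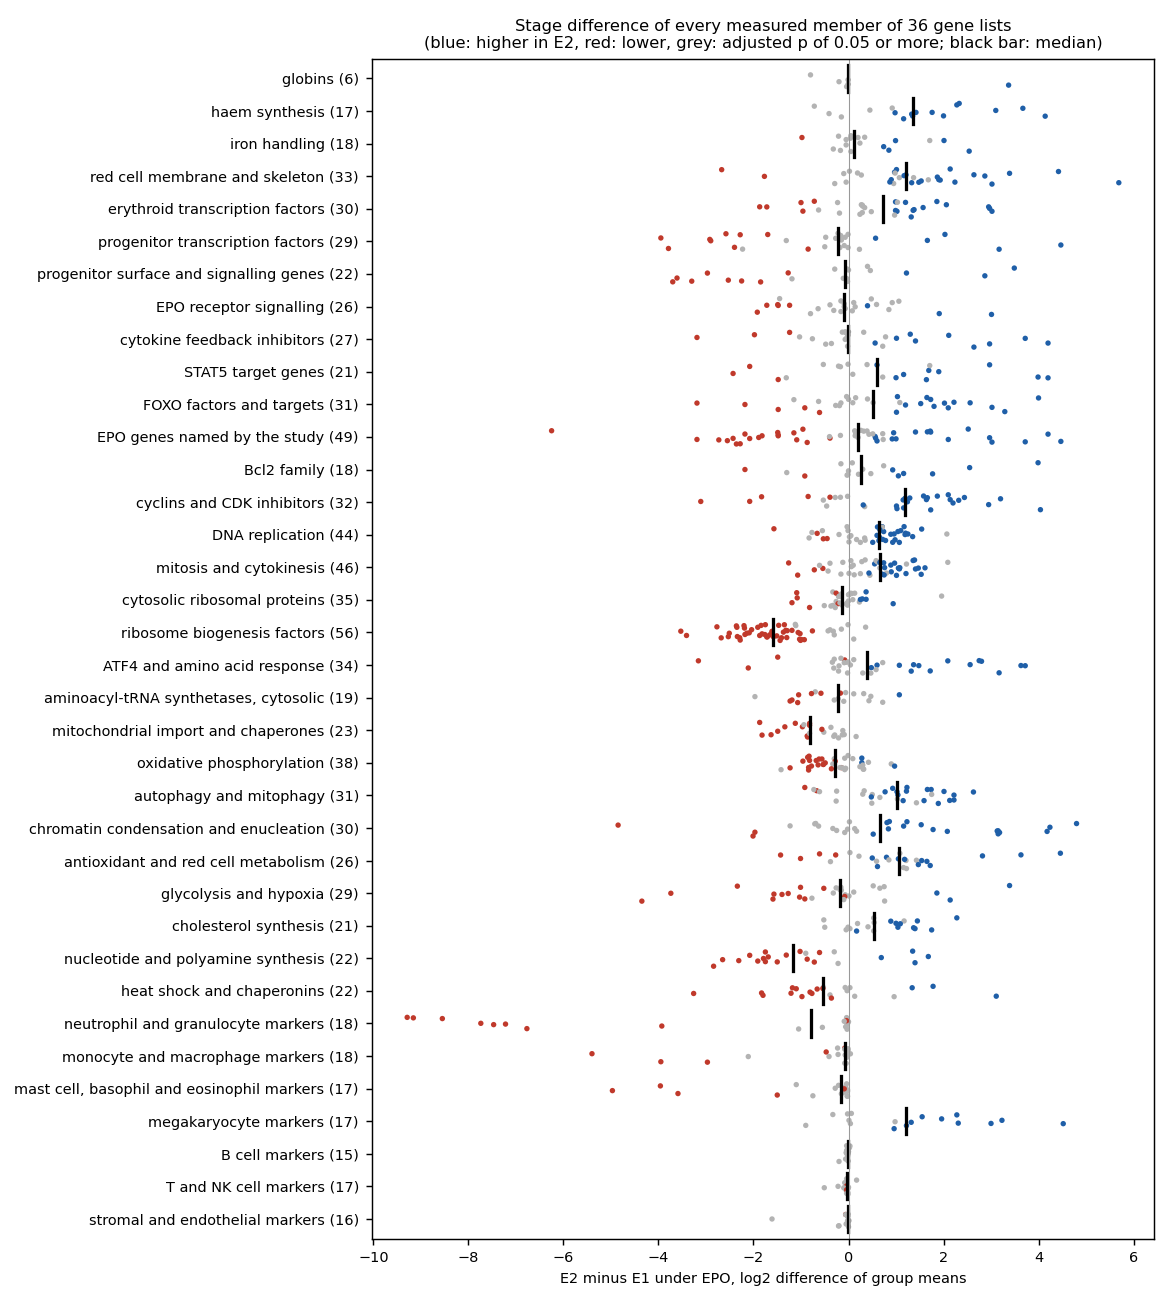
Differences of E2 minus E1 under EPO (horizontal axis, log2 units) for the measured members of 36 gene lists, 1 point a gene, blue if called higher, red if called lower and grey if not called, with a black bar at each list's median. Ribosome biogenesis factors lie furthest to the left as a group (median -1.60) and haem synthesis and megakaryocyte markers to the right (medians 1.35 and 1.22).

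Genes of the EPO pathway itself were called at close to the share of all genes. The receptor gene Epor had a difference of 0.92 that did not pass (adjusted p = 0.0854), and Jak2 one of -0.16. Of 26 genes of the pathway 5 were lower and 3 higher (19.2% and 11.5%, against 15.8% and 11.6% of all genes), and 1 was higher without any 1 of the E2 arrays. The adaptors Gab2 (2.81-fold), Irs2 (2.80-fold) and Sos1 (3.78-fold) and the inhibitory adaptor Sh2b3 (Lnk, 2.37-fold) were lower, and Pik3r1, the regulatory subunit of phosphoinositide 3-kinase, was 8.04-fold higher. For Sos1 only the probe set used was called, and its others differed by 0.63, -0.23, -0.47 and -0.04. The other probe set of Sh2b3 was not called either. Among 27 feedback inhibitors of cytokine signalling 9 were higher and 3 lower, and 5 were higher without E2 replicate 2. Socs3, which blocks JAK signalling, read -0.46, -0.05, 0.05 and -0.09 in E1 and 3.99, 4.07 and 4.13 in E2 (18.4-fold, adjusted p = 4.35e-05). Cish, another member of that family and a classical STAT5 target, read 0.02, -0.02, -0.14 and -0.22 against 2.97, 2.81 and 2.88 (7.86-fold, adjusted p = 2.11e-05). Trib3 (13.2-fold), a pseudokinase induced by stress, and the phosphatase Dusp1 (6.23-fold) were higher, while Trib2 was 9.14-fold lower. Of the other relatives of Cish, Socs4 was called higher (difference 1.3, adjusted p = 0.00961). Socs2, with a difference of 0.72 and E1 values spread from 1.08 to 2.67, and Socs1, with one of -0.01, were not called. Socs5, Socs6 and Socs7 were not called either. Of 21 STAT5 target genes 9 were higher and 3 lower, the lower ones being Ccnd2, Pim3 (2.79-fold) and Podxl, whose fall of 5.38-fold turned to a difference of 0.44 under quantile normalization. Osm (oncostatin M) was 1.51-fold higher, and Pim1 2.01-fold, a call lost without any 1 of the E2 arrays.

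A list of 49 measured EPO response genes was taken in the main from genes that the study names, and is a selection from them, with the growth factor response genes Egr1 and Myc beside them. The study chose its genes on these arrays, so the list is not independent evidence of a direction. Between the stages under EPO 17 were higher and 19 lower, and the median was 0.20. The highest were Egr1, Socs3, Trib3, Klf3, Cish and Plek2, a pleckstrin of the red cell skeleton (5.73-fold). Ccnb1ip1 was the lowest, reading 5.98, 6.37, 6.23 and 6.12 in E1 and -0.05, -0.09 and -0.09 in E2 (76.3-fold, adjusted p = 5.77e-06). Gdf3, a TGF-beta family ligand, was 5.87-fold lower, and the nucleolar genes Gnl3 (5.14-fold) and Nol8 (4.86-fold) fell together with the ribosome biogenesis factors, in which they are also counted. Most of the ATF4 and amino acid response genes that were called rose (14 of 34, with 4 lower), Ddit3 (Chop) reading -3.37, -3.45, -3.43 and -3.5 in E1 and 0.22, 0.18 and 0.17 in E2 (12.4-fold, adjusted p = 2.13e-06). The serine synthesis enzymes Psat1 (8.92-fold) and Phgdh (4.32-fold) were lower. The 14 higher were 9 without E2 replicate 1 or 3, and the 4 lower were 2 without E1 replicate 2 or 3 or any 1 of the E2 arrays. Of 19 cytosolic aminoacyl-tRNA synthetases 7 were lower, Lars by 2.35-fold and Rars by 2.28-fold, and 1 was higher (Aars, 2.10-fold), which became 3 without E1 replicate 2.

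The largest differences over all genes included several outside these lists. Apol11b, an apolipoprotein L family gene, read -5.85, -6.88, -7.3 and -7.5 in E1 and 0.5, 0.55 and 0.81 in E2 (181-fold, adjusted p = 0.000225). Tmcc2 was 79.2-fold higher and Tinagl1 47.8-fold. Rsad2 (viperin), an interferon-induced antiviral gene, was 38.3-fold higher, with values of -5.56 to -5.24 in E1 and -0.35 to 0.01 in E2. Mxd1, a partner of Max that opposes Myc, was 33.0-fold higher, and Fn3k, which repairs glycated proteins in red cells, 36.9-fold. The largest falls after the granule genes were Plac8 (82.8-fold), Ccnb1ip1 (above), Pawr (61.3-fold), Anxa1 (58.4-fold) and Ms4a3 (57.3-fold), the last a gene of granulocyte and monocyte precursors.

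The stage difference under EPO was then set beside the one without EPO, which used other arrays of the same stages. Without EPO 2224 genes were higher in E2 (12.2%) and 2069 lower (11.4%), as were 4102 (9.11%) and 3814 (8.47%) probe sets. Of 9802 probe sets called under EPO, 9510 (97.0%) had the same sign without it, 5506 were called the same way (56.2% of these calls, and 69.6% of the 7916 called without EPO) and 8 were called the opposite way. Over all probe sets the 2 stage differences correlated with r = 0.89, a description in which probe sets are not independent and stage goes with any array batch in both. Haem genes were higher in 12 of 17 cases with EPO and in 14 without, and the median of the ribosome biogenesis factors was -1.60 with EPO and -1.26 without. Slc4a1 differed by 5.69 with and 6.61 without EPO, Alas2 by 4.14 and 4.22, Gata2 by -2.28 and -2.55, Kit by -3.70 and -3.98 and Mpo by -9.29 and -9.47. For these genes the stage difference under EPO lay close to that without it, and none had a called interaction.

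**Figure D4:**
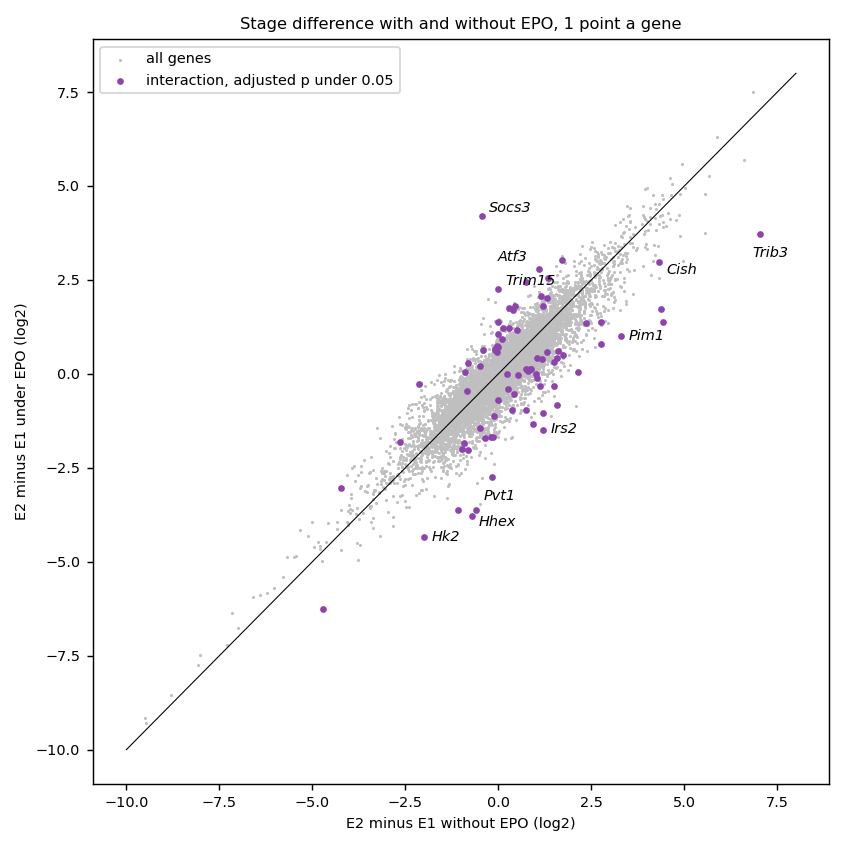
Stage difference, E2 minus E1, without EPO (horizontal axis) and under EPO (vertical axis), in log2 units, with 1 point a gene and purple points where the difference between the 2 was called. Most genes lie along the diagonal, and Socs3 (4.20 under EPO, -0.45 without) and Trib3 (3.72 and 7.03) are among those far from it.

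A stage by EPO interaction, the test of whether the stage difference itself changed with EPO, was called for 187 of 45037 probe sets (0.415%), 81 with a more positive and 106 with a more negative stage difference under EPO, of which 152 were also called between the stages under EPO. At an unadjusted p under 0.05 there were 3236. With the replicate number as a block, whose numbers go together with and without EPO in E1 but not in E2, 28 and 39 were called. By gene 31 were more positive (0.17%) and 49 more negative (0.269%). Socs3 had the largest positive interaction, 4.66 ± 0.27 (adjusted p = 3.6e-05). Without EPO it read -0.72, -1.03, -1.19 and -0.28 in E1 and -1.37, -1.13 and -1.28 in E2, a stage difference of -0.45 that was not called, and with EPO its mean was 5.32 log2 units higher in E2 and 0.67 higher in E1. All 3 probe sets of Socs3 gave a called interaction (4.39, 2.91 and 4.66). They differed in the response of E1, since the first 2 rose with EPO by 0.21 and 2.7 in E1 and by 4.6 and 5.61 in E2. The study reports that EPO induced Socs3 in E1 cells. Trim15 read within 0.08 of 0 in E1 with and without EPO and in E2 without it, and 2.25, 1.84 and 2.62 in E2 with EPO (interaction 2.26, adjusted p = 0.000383). Maff, a small Maf protein, showed the same layout, with 1.55, 1.0 and 1.55 in E2 under EPO and at most 0.03 from 0 elsewhere (1.39, adjusted p = 0.00256). Atf3 (1.70) and Klf10 (1.70, adjusted p = 0.048), both early response genes, also had a larger rise in E2.

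Among the genes with the largest negative interactions, some were already high in E2 without EPO and were raised by EPO mainly in E1. Trib3 read -7.67, -7.35, -6.68 and -6.77 in E1 without EPO and -2.55, -2.89, -2.93 and -3.15 with it, while E2 went from -0.28, 0 and 0 to 0.83, 0.88 and 0.82, and the stage difference fell from 7.03 to 3.72 (interaction -3.30 ± 0.31, adjusted p = 0.00111, both probe sets called). Nupr1 (-3.06) and Chac1 (-2.66), like Trib3 targets of the amino acid response, and Pim1 (-2.28, 1 of its 2 probe sets called) followed this layout. Cish also had a negative interaction (-1.33, adjusted p = 0.0152), since EPO raised it by 5.35 in E1 and by 4.02 in E2, although it ended highest in E2. Other genes stayed at the same value in E2 and rose under EPO in E1. Hk2 read 2.2, 1.69, 1.97 and 1.94 in E1 without EPO and 4.23, 4.7, 4.27 and 3.96 with it, and lay within 0.06 of 0 on all 6 E2 arrays (-2.34, adjusted p = 0.000726). Hhex (-3.07) and Ydjc (-2.54) did the same, as did Pvt1 by the probe set used (-3.01, 1 of its 5 probe sets called). The other probe sets of Pvt1 rose with EPO in E2 by 0.05 to 0.82. Irs2 rose by 3.50 in E1 and 0.82 in E2, so that its stage difference turned from 1.2 without EPO, which was not called, to -1.48 with it (interaction -2.68, adjusted p = 0.0234). Crebbp rose by 1.10 in E1 and fell by 1.32 in E2 (-2.43, adjusted p = 0.0465), had 1 of 4 probe sets called and was not called between the stages under EPO. Of the 49 EPO response genes, 1 had a positive and 8 a negative interaction, beside 0.17% and 0.269% of all genes. The study chose most of them by their EPO response in E1, which is a term of the interaction. These counts are therefore not independent of that choice, and no direction can be read from them.

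**Figure D5:**
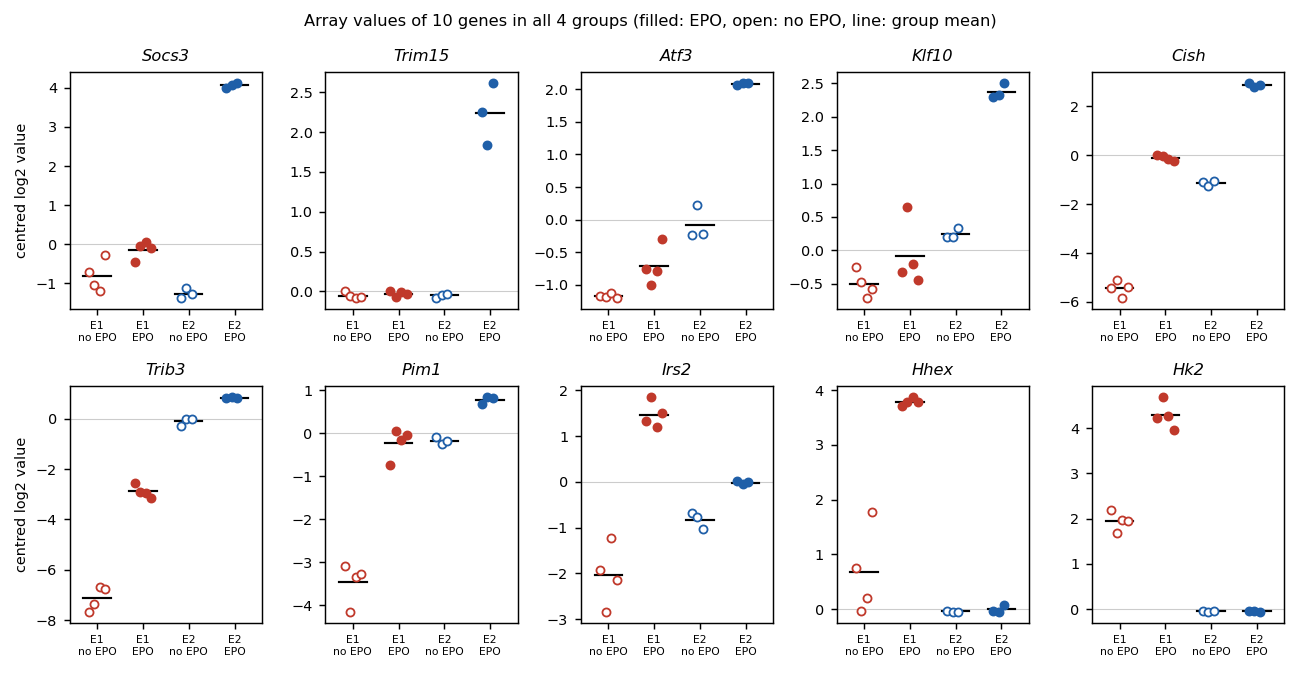
Centred log2 values (vertical axis, log2 units) of 10 genes with a called stage by EPO interaction in the 4 groups (E1 and E2, without and with EPO), where points are the arrays, 4 a group in E1 and 3 a group in E2. By the probe set shown, Socs3 is high in the E2 arrays with EPO alone (3.99 to 4.13). Trib3 rises mainly in E1, and Hk2 and Hhex rise in E1 and stay near 0 in E2.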

How the data were processed

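RNA from 14 samples was hybridized to Affymetrix mouse genome arrays. The authors scaled signals with GC-RMA and deposited them on a log2 scale from which 1 constant per probe set had been subtracted. The log base is that of GC-RMA and is not stated in the sources used here. Which arrays set the constants is not given there either, so levels cannot be compared between genes, and signal over background is unknown. Of 45101 probe sets, 64 array controls were set aside and 45037 were tested as deposited, with no filter. GEO's platform annotation, updated through Entrez identifiers, gave 34945 probe sets naming 1 gene (18193 genes), 932 naming several and 9160 none.

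Stage E2 plus EPO (3 arrays) was compared with stage E1 plus EPO (4 arrays) in limma 3.58.1 (R 4.3.3; lmFit and eBayes, two-sided, Benjamini-Hochberg adjustment over all probe sets). The arrays without EPO were fitted alike, and the stage by EPO interaction on all 14 arrays with 1 mean per group. Differences are given with their SE. The number of arrays limits the precision. Each gene was represented by the probe set with the largest SD over the arrays without EPO, a choice that does not use the EPO arrays. Values without EPO and interactions are not independent of it.

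Named genes were Kit and Tfrc, the 12 largest called rises and falls that did not overlap, up to 6 members of each list by smallest p in its main direction and up to 3 in the other, the listed EPO response genes, the 10 largest interactions each way, the defining markers of other cell types and any marker called against its list. Genes outside this rule are named only where a count or a contrast needed them and were picked after their values were seen. The members and lists were chosen with earlier results of these data known. Replicate numbers did not pair the E1 and E2 arrays (correlations of the deviations of same-numbered arrays from their group means were -0.075, -0.126 and -0.051).

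The comparison under EPO was tested on simulated arrays of 45037 probe sets. When 9802 were shifted, 88.8% of those shifted by 1 log2 unit and 98.2% of those shifted by 2 were called, and 5.31% of calls fell on unshifted probe sets. When only 100 were shifted by each size, the shares called were 67% and 91%, and 21% of calls fell on unshifted ones. Alternatives were quantile normalization, median centring, array weights, weights per stage, robust eBayes, a replicate block, leaving out each array, a fit on all arrays, the methods' one-tailed t-test, a test with unequal variances, the more variable probe sets alone, another fold threshold and other ways to represent a gene.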

Additional observations from a re-analysis of the deposited data

Results flagged for a closer look

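For 4 of 43 measures examined over the E1 arrays under EPO, replicate 1 lay so far from the other 3 that its gap exceeded Dixon's 95% critical value for 4 samples, where chance would pick out about 1 in 20. The set means concerned were those of the mitosis and cytokinesis genes (replicate 1 at -0.63, the others at -0.54 to -0.52, gap ratio 0.841), the cholesterol synthesis genes (-0.07 against -0.19 to -0.18, ratio 0.908), the B cell markers (0.05 against -0.01 to 0, ratio 0.887) and the control probe sets for a transcript absent from the sample (0.05 against -0.01 to 0, ratio 0.833).

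The stage difference changed with EPO, by the limma interaction test, in the 10 genes with the largest change in each direction. It was more positive under EPO for Socs3 (4.66), Trim15 (2.26), Sesn3 (1.88), Klf10 (1.70), Atf3 (1.70), Phlda1 (1.47), Maff (1.39), Rasl11a (1.36), Brpf3 (1.30) and Gadd45g (1.29). It was more negative for Trib3 (-3.30), Hhex (-3.07), Nupr1 (-3.06), Pvt1 (-3.01), Irs2 (-2.68), Chac1 (-2.66), Trgv4 (-2.55), Ydjc (-2.54), Crebbp (-2.43) and Hk2 (-2.34). Sesn3, a stress protein controlled by FOXO factors, read 1.98, 2.41, 1.8 and 1.92 in E1 without EPO and 0.26, 0.36, 0.4 and -0.01 with it, and lay within 0.15 of 0 on all E2 arrays, so that it was the one of these genes in which EPO lowered E1 by over 1.5 log2 units.

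The poly-A spike-in controls, which are no part of the gene comparison, differed by -3.58 log2 units between E2 and E1 under EPO. The part of this difference in the results was not tested.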

How the results depend on the processing

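Between the stages under EPO the main counts were 4081 probe sets higher and 5721 lower, and 2286 and 2287 with a fold of at least 2. Quantile normalization gave 4976 and 4823, median centring 4114 and 5152, and a fit on all arrays 4642 and 5405. Array weights gave 11977 lower. The methods' t-test gave 6161 and 20083 without adjustment and 13742 lower with it. A fold of 1.5 gave 3469 and 3543. A replicate block, although the numbers pair no arrays across stages, gave 1907 and 2113, with 1314 and 1305 at least 2-fold and 28 and 39 for the interaction. Same-numbered arrays with and without EPO deviated together in E1 (0.152 to 0.195) but not in E2 (-0.061 to -0.016). Leaving out 1 array at a time gave 2786 to 4055 higher and 3187 to 6863 lower (3240, 3385 and 3187 without E2 replicate 1, 2 or 3), and 1773 to 2224 and 1772 to 2541 with a fold of at least 2. Without EPO the counts were 4102 and 3814, 2971 to 4083 and 2543 to 4663 with 1 array left out, and array weights gave 6233 lower. For the interaction (81 and 106) the ranges were 39 to 114 and 51 to 217. It gave 39 higher without E2 replicate 1 without EPO, 42 higher and 70 lower without E2 replicate 2 without EPO, 217 lower without E1 replicate 1 with EPO, and 51 and 58 lower without E2 replicate 1 or 3 with EPO. Quantile normalization gave 949 and 769 and array weights 388 and 481. The cause of these differences was not tested.

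Of 393 named genes 290 were called, 247 of them in every fit that left out 1 array and 207 with the block. The sign of the difference turned under quantile normalization for Podxl (0.44), Ccng2 (-0.11), Rpl12 (1.01) and Cdc25a (0.25), with the mean of all probe sets of a gene for Spred2 (-0.31), Cdc25a (0.04), Cenpf (0.02) and Sdha (-0.02), and with the probe set of largest SD over all arrays for Spred2 (-1.75), Cdc25a (0.57), Timm9 (0.16) and Rpl35 (-0.21). Probe sets of Ccnd3, Ddx18, Paics, Pnrc1, Sdha and Uqcrb were called in both directions.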
